A study of Mus musculus with 6 samples.

Results

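The 8 genes Jchain, Mzb1, Xbp1, Sdc1, Derl3, Eaf2, Fkbp11 and Pou2af1 are genes of the plasma cell, the cell that makes and releases antibody, and most of their products work in or for its secretory pathway. They were taken by symbol, as the rows of the gene table whose Ensembl ID carries that symbol in the GENCODE M21 annotation, and all 8 were found among 55401 gene IDs. All 8 were also among the 16211 genes with enough counts to test. The study sorted cells from mouse bone marrow and made 6 bulk RNA libraries, each from 2000 cells, with 3 libraries for each of 2 groups. LSK libraries came from Lin-, Sca-1+, c-Kit+ cells, a gate that takes in haematopoietic stem cells and multipotent progenitors, of untreated wild-type C57BL/6 mice of 6 to 8 weeks. ESC-derived libraries came from Lin-, Sca-1+, c-Kit- cells labelled wild type, sorted from the marrow of primary recipients that had been given CD144+ cells differentiated from embryonic stem cells (ESCs). The labels do not state the strain, age or conditioning of the recipients, the number of animals behind a library, or whether replicates came from separate animals, so p-values measure only the spread between these libraries, which may be technical. The groups differ at once in the c-Kit gate, in the origin of the cells and in the animal, an untreated mouse or a recipient. The part of each in a difference, or of traits that the labels do not state, cannot be told apart.

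An antibody-secreting cell translates immunoglobulin chains into the endoplasmic reticulum (ER), where chaperones fold and join them before export. The transcription factor XBP1 enlarges this machinery. Its messenger RNA is made active in the cytoplasm, where the ER stress sensor IRE1 removes a short internal stretch and so shifts the reading frame. JCHAIN links the units of polymeric IgM and IgA, MZB1 is an ER protein that helps immunoglobulin assembly, FKBP11 is a prolyl isomerase of the secretory pathway, and DERL3 helps to move misfolded proteins out of the ER for degradation. SDC1, or syndecan-1, is the surface proteoglycan CD138 by which plasma cells are sorted. POU2AF1, also called OBF-1 or BOB.1, is a B cell coactivator that binds the octamer factors POU2F1 and POU2F2, and EAF2 is a partner of the ELL elongation factors of RNA polymerase II. Lin-negative gates are meant to leave mature blood cells out, and LSK cells are not antibody-secreting cells.

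The stretch of Xbp1 that IRE1 removes is shown because counts per gene cannot separate the 2 forms of this messenger RNA, so the Xbp1 values below are for both together. It is printed with 18 bases on either side, as chr11:5524264-5524325 on the + strand (GRCm38, GENCODE M21), in coding sequence that 3 of the 4 annotated Xbp1 transcripts hold. Capitals mark the 26 bases that are removed, from 5524282 to 5524307.
Xbp1: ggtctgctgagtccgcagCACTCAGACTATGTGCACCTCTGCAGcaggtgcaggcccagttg
Promoter stretches of Derl3 and Pou2af1 are shown because they held motifs known for XBP1 and ER stress within 250 bases before the start. They are from RefSeq (GRCm38.p6), at chr10:75893198-75893397 and chr9:51213570-51213689, both on the + strand and both ending at the last base before the start. In Derl3, capitals mark GCCACGT, which begins 170 bases before the start, and the ER stress element (CCAAT, any 9 bases, CCACG) on the other strand, 156 bases before it. In Pou2af1, capitals mark TGACGTGG, 61 bases before the start, together with GCCACGT on the other strand, which overlaps it and begins 59 bases before the start.
Derl3: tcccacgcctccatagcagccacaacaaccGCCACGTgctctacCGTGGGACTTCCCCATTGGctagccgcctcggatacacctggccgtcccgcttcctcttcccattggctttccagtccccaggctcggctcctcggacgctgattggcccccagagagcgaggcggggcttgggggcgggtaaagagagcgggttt
Pou2af1: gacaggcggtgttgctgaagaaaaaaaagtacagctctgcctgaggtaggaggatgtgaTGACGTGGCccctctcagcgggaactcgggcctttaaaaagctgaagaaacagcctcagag
Both strands of 10 windows of 7 of the genes were searched, each from 250 bases before to 50 after a start, and Mzb1 was not analysed. Fkbp11 held GCCACGT on the other strand, 22 bases after a start. Over all 32851 RefSeq windows, 0.676% held TGACGTGG, 2.58% held GCCACGT, 0.119% held the ER stress element and 1.74% held the octamer ATGCAAAT, which none of the 10 windows held. A match describes letters and does not show binding.

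Total counts per library ran from 41580006 to 49269286. Kit, on whose product the gates select, had 2, 4 and 6 counts in the ESC-derived libraries and from 2081 to 2550 counts in LSK. Immunoglobulin genes held 7.54 to 9.48% of LSK counts and 0.0188 to 0.0373% of ESC-derived counts. T cell markers, 11 of 11 higher in the ESC-derived libraries, summed to 153 to 188 CPM (counts scaled to a common library size, the unit of all levels here) in LSK and 14922 to 15806 CPM in ESC-derived libraries, although these carry the Lin- label. B cell markers summed to 666 to 682 CPM in LSK and 13 to 18.7 CPM in ESC-derived libraries, and 7 of 12 tested fell. Stem and progenitor markers, 10 of 10 lower, summed to 2203 to 2292 and 2.64 to 8.41 CPM. Some B cell and stem markers, Igll1 and Kit among them, were under the low-count filter's level of 0.22 CPM in every ESC-derived library. They were tested only because of their LSK levels, so a fall was the only call open to them. For comparison with these counts, 15.2% of all tested genes were lower and 14.8% higher. LSK replicate 2 stood apart in 1 way: among 1003 genes that differed at least 2-fold between LSK replicates 1 and 3 and reached 10 CPM in 1 of them, it lay between them in 95.2%. The same share for the other libraries was 28.3 to 71.1%. Whether LSK replicate 2 is an independent library cannot be told from the labels, and the n = 3 given below counts it as such. Results for the 8 genes are therefore given with and without LSK replicate 2, and those for other genes only where stated.

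Transcripts of the 8 genes were present in the LSK libraries and lower in the ESC-derived ones, by amounts that ran from 1.87-fold for Xbp1 to 829-fold for Jchain. In 8 of 8 genes the lowest LSK library lay above the highest ESC-derived library, as it did in 27.2% of all tested genes (49.8% did not overlap in either direction). Of the 8, 7 were lower in the ESC-derived libraries past an adjusted p of 0.05 and 0 were higher (edgeR quasi-likelihood test, Benjamini-Hochberg adjustment over 16211 genes), and Eaf2 did not pass. Of all tested genes 15.2% were lower and 14.8% higher, 30.0% in all. With library totals as the only scaling that split was 3057 lower and 1756 higher, in place of 2466 and 2395. The genes were chosen with earlier results of these libraries known, so their count gives no independent evidence of a direction. Sdc1 and Eaf2 reached the filter's level of 0.22 CPM in 1 ESC-derived library and Fkbp11 in 2, so these were tested because of their LSK levels. In bulk RNA, fewer cells of a type and less RNA per cell cannot be told apart.

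Jchain (ENSMUSG00000067149, chromosome 5, 88519809 to 88527891, - strand) stood at 3949, 4351 and 4568 CPM in LSK replicates 1 to 3 and at 5.99, 1.42 and 8.07 CPM in ESC-derived replicates 1 to 3. Every LSK library lay far above every ESC-derived one, whose own values were low and uneven. The means were 4289 ± 314 and 5.16 ± 3.40 CPM (SD, n = 3), a log2 fold change of -9.70 ± 0.74 (SE, edgeR adjusted p = 0.000221). The call held in 17 of 17 alternatives, and without LSK replicate 2 the adjusted p was 0.0014. By mean LSK CPM Jchain ranked 16 of 16211 genes, and by the size of its fall it ranked 266.

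Mzb1 (ENSMUSG00000024353, chromosome 18) stood at 114, 132 and 183 CPM in the LSK libraries and at 15.2, 1.96 and 2.15 CPM in the ESC-derived ones. The groups did not overlap, but ESC-derived replicate 1 held 78.7% of that group's level. The means were 143 ± 35.7 and 6.45 ± 7.60 CPM (SD, n = 3), with a log2 fold change of -4.47 ± 0.89 (edgeR adjusted p = 0.0102, and 0.0309 without LSK replicate 2). Without ESC-derived replicate 1 the log2 fold change was -6.11. The call held in 17 of 17 alternatives. Another annotated gene, SPATA24, overlaps Mzb1 on the same strand and had 79 counts in LSK replicate 2 and 0 in the other libraries.

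**Figure D1:**
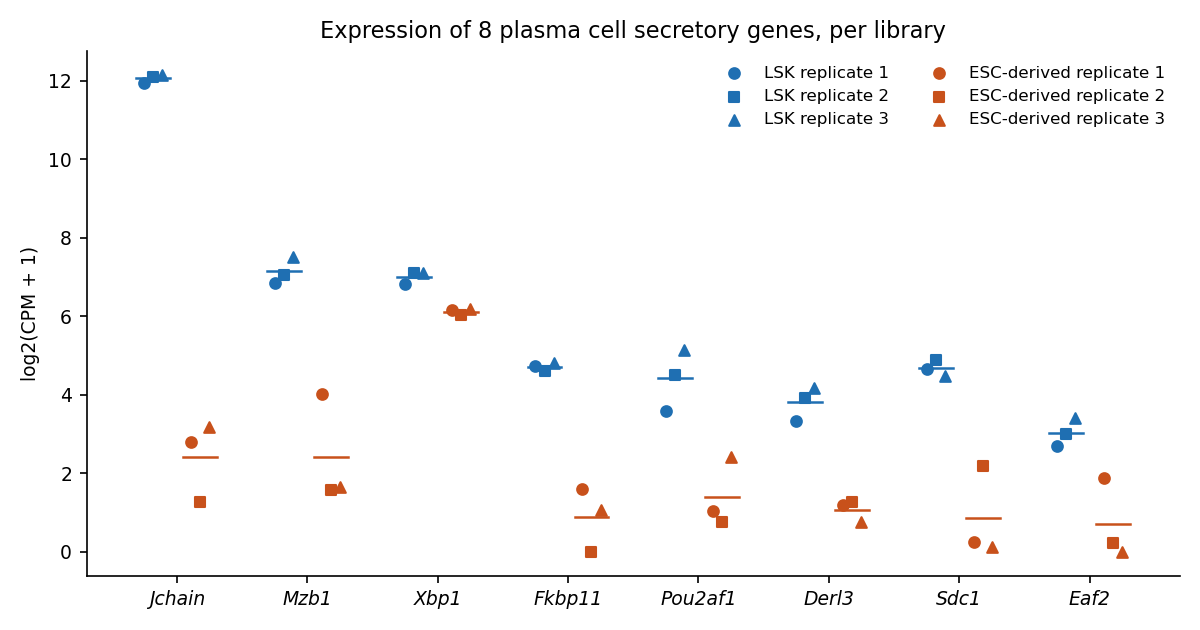
Level of the 8 genes in each library, as log2(CPM + 1), with LSK libraries in blue, ESC-derived libraries in orange, symbols for replicates and a bar at the mean of the 3 plotted values of a group. The LSK points lie above the ESC-derived points for each gene, widely for Jchain and narrowly for Xbp1, and the ESC-derived points of Mzb1, Sdc1 and Eaf2 are spread by 1 high library each.

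Xbp1 (ENSMUSG00000020484, chromosome 11, 5520659 to 5525893, + strand) was the gene of the 8 that kept most of its level. It stood at 112, 136 and 137 CPM in the LSK libraries and at 70.0, 64.7 and 71.4 CPM in the ESC-derived ones. Both groups were tight and did not overlap. The means were 129 ± 14.1 and 68.7 ± 3.53 CPM (SD, n = 3), a log2 fold change of -0.90 ± 0.13 (edgeR adjusted p = 0.00311, and 0.0233 without LSK replicate 2). Against a change of at least 2-fold the adjusted p was 0.993, and the call held in the other 16 alternatives. XBP1 acts in many cell types besides plasma cells.

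Derl3 (ENSMUSG00000009092, chromosome 10, 75893413 to 75895941, + strand), whose promoter stretch is printed above, stood at 9.07, 14 and 17.1 CPM in the LSK libraries and at 1.28, 1.39 and 0.697 CPM in the ESC-derived ones. The ESC-derived libraries were all low, and no library held most of the group's level. The means were 13.4 ± 4.03 and 1.12 ± 0.375 CPM (SD, n = 3), a log2 fold change of -3.57 ± 0.49 (edgeR adjusted p = 0.0025, and 0.0186 without LSK replicate 2). The call held in 17 of 17 alternatives.

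Fkbp11 (ENSMUSG00000003355, chromosome 15, 98724366 to 98728198, - strand) stood at 25.5, 23.5 and 27.0 CPM in the LSK libraries and at 2.05, 0 and 1.10 CPM in the ESC-derived ones. Its LSK level was the most even of the 8, and ESC-derived replicate 2 had no count. The means were 25.3 ± 1.74 and 1.05 ± 1.02 CPM (SD, n = 3), a log2 fold change of -4.59 ± 1.25 (edgeR adjusted p = 0.0318). Without LSK replicate 2 the adjusted p was 0.0822, with a log2 fold change of -4.67. The call held in 11 of 17 alternatives and in 2 of the 6 fits that leave out 1 library.

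Sdc1 (ENSMUSG00000020592, chromosome 12, 8771323 to 8793715, + strand), the CD138 gene, stood at 24.4, 28.6 and 21.2 CPM in the LSK libraries and at 0.190, 3.57 and 0.0845 CPM in the ESC-derived ones. ESC-derived replicate 2 held 92.8% of that group's level and still lay below the lowest LSK library. The means were 24.7 ± 3.72 and 1.28 ± 1.98 CPM (SD, n = 3), a log2 fold change of -4.27 ± 1.32 that lay at the threshold (edgeR adjusted p = 0.0496, and 0.118 without LSK replicate 2). Without ESC-derived replicate 2 the log2 fold change was -7.48 and passed, and in the other 5 fits that leave out 1 library it did not pass. Of all 17 alternatives, 9 kept the call.

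Pou2af1 (ENSMUSG00000032053, chromosome 9, 51213708 to 51240080, + strand) stood at 11, 21.9 and 34.5 CPM in the LSK libraries and at 1.05, 0.685 and 4.35 CPM in the ESC-derived ones. It was the most uneven of the 8 genes within LSK, and ESC-derived replicate 3 held 71.5% of its group's level. The means were 22.5 ± 11.8 and 2.03 ± 2.02 CPM (SD, n = 3), a log2 fold change of -3.47 ± 0.84 (edgeR adjusted p = 0.0208, and 0.0606 without LSK replicate 2). Of the 6 fits that leave out 1 library, 2 kept the call.

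Eaf2 (ENSMUSG00000022838, chromosome 16, 36792884 to 36875003, - strand) stood at 5.51, 7.05 and 9.58 CPM in the LSK libraries and at 2.69, 0.165 and 0 CPM in the ESC-derived ones. The groups did not overlap, and ESC-derived replicate 1 held 94.2% of its group's level. The means were 7.38 ± 2.06 and 0.951 ± 1.51 CPM (SD, n = 3), a log2 fold change of -2.95 ± 1.62 that did not pass (edgeR adjusted p = 0.229, and 0.357 without LSK replicate 2). Without ESC-derived replicate 1 it was -6.46 (edgeR adjusted p = 0.0254). Eaf2 overlaps Iqcb1 on the other strand, which had 735 to 761 counts in LSK and 138 to 408 in ESC-derived libraries. The libraries do not mark strand, so reads of the 2 genes cannot be told apart where they overlap.

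**Figure D2:**
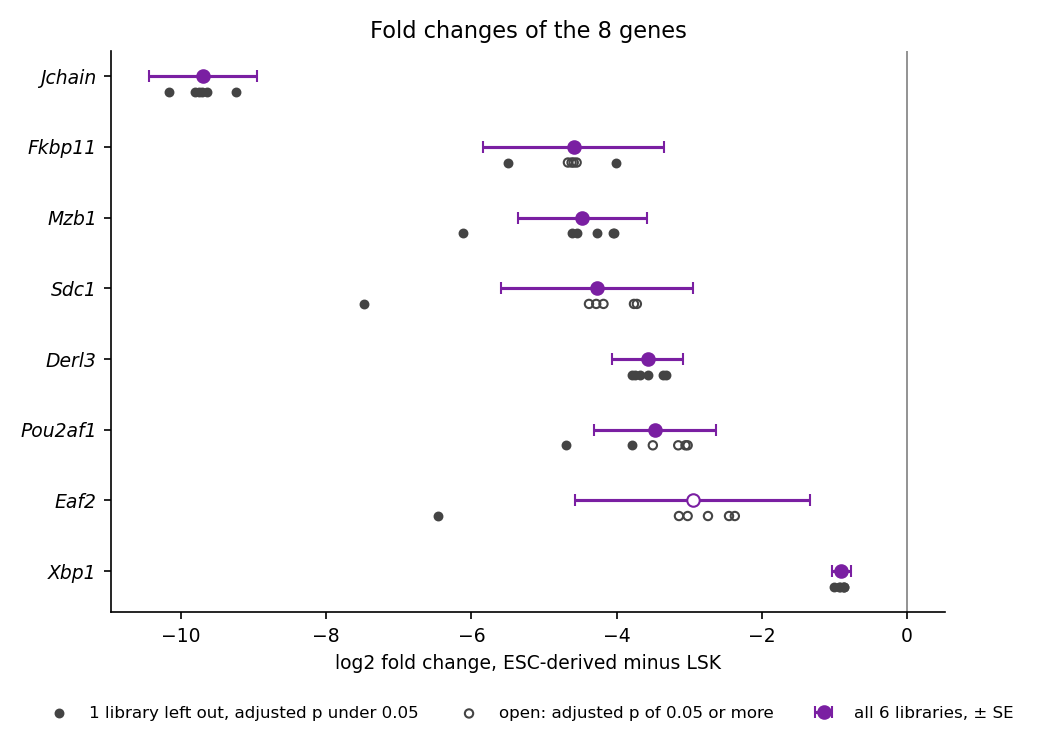
Log2 fold change of the 8 genes, ESC-derived minus LSK, with its SE over all 6 libraries (purple) and the value with each library left out in turn (small points), open where the adjusted p was 0.05 or more. The values of Xbp1 and Derl3 lie close together, while those of Sdc1, Eaf2 and Mzb1 each have 1 point far to the left, where the highest ESC-derived library is left out.

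Set per kilobase of exon, which allows levels of different genes to be compared, the order in LSK began with Jchain at 1704 ± 125, Mzb1 at 118 ± 29.3 and Xbp1 at 39.6 ± 4.34 CPM per kilobase (SD, n = 3). The LSK libraries of these 3 genes did not overlap with those of their neighbours in the order. Fkbp11 followed at 9.36 ± 0.642, Pou2af1 at 8.82 ± 4.62, Derl3 at 6.71 ± 2.02 and Sdc1 at 6.49 ± 0.975 CPM per kilobase. From Fkbp11 to Sdc1, the libraries of each gene overlapped with those of the next. Every Fkbp11 library, the lowest at 8.7, lay above those of Derl3, at most 8.57, and of Sdc1, at most 7.52. The place of Pou2af1 and the order of Derl3 and Sdc1 are not firm. Eaf2 was lowest at 1.69 ± 0.471 CPM per kilobase, under every LSK library of the other 7.

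In the ESC-derived libraries the order on the same scale began with Xbp1 instead, at 21.1 ± 1.09 CPM per kilobase, above all libraries of the other 7 genes. Mzb1 at 5.31 ± 6.26 and Jchain at 2.05 ± 1.35 CPM per kilobase came next and overlapped, and the remaining 5 genes had means from 0.218 to 0.795 CPM per kilobase. Jchain thus went from the top of the order in LSK to below Xbp1 in the ESC-derived libraries. The differences between neighbours in this order were described from the libraries' ranges and were not tested.

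Within the LSK group the highest library was 1.15 times the lowest for Fkbp11, 1.16 times for Jchain and 1.22 times for Xbp1. For Sdc1 the ratio was 1.35, for Mzb1 1.61, for Eaf2 1.74, for Derl3 1.88 and for Pou2af1 3.14. LSK replicate 3 was highest for 7 of the 8 genes and LSK replicate 2 for Sdc1. LSK replicate 3 was also the library with the largest share of immunoglobulin counts, 9.48%, and with the most Tnfrsf17, the plasma cell receptor BCMA, which stood at 3.16, 8.62 and 11 CPM in replicates 1 to 3. The pre-B cell gene Igll1 was instead lowest in replicate 3, at 46.9, 30.0 and 16.4 CPM in replicates 1 to 3. Cd79a, which encodes the Ig-alpha signalling chain, stood level at 228, 231 and 224 CPM. The part of these differences in the spread of the 8 genes was not tested.

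Within the ESC-derived group the highest library differed from gene to gene. It was replicate 1 for Mzb1, Eaf2 and Fkbp11, replicate 2 for Sdc1 and Derl3, and replicate 3 for Jchain, Xbp1 and Pou2af1. A fragment was often worth about 4 counts in this table, so the 8 and 4 counts of Sdc1 in replicates 1 and 3, or the 7 counts of Eaf2 in replicate 2, stand for very few fragments. At that depth the low values themselves are not firm. The high libraries held 151 counts of Sdc1 (replicate 2) and 113 counts of Eaf2 (replicate 1), and what lies behind these differences was not tested. Xbp1 had 2740 to 3381 counts per ESC-derived library.

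**Figure D3:**
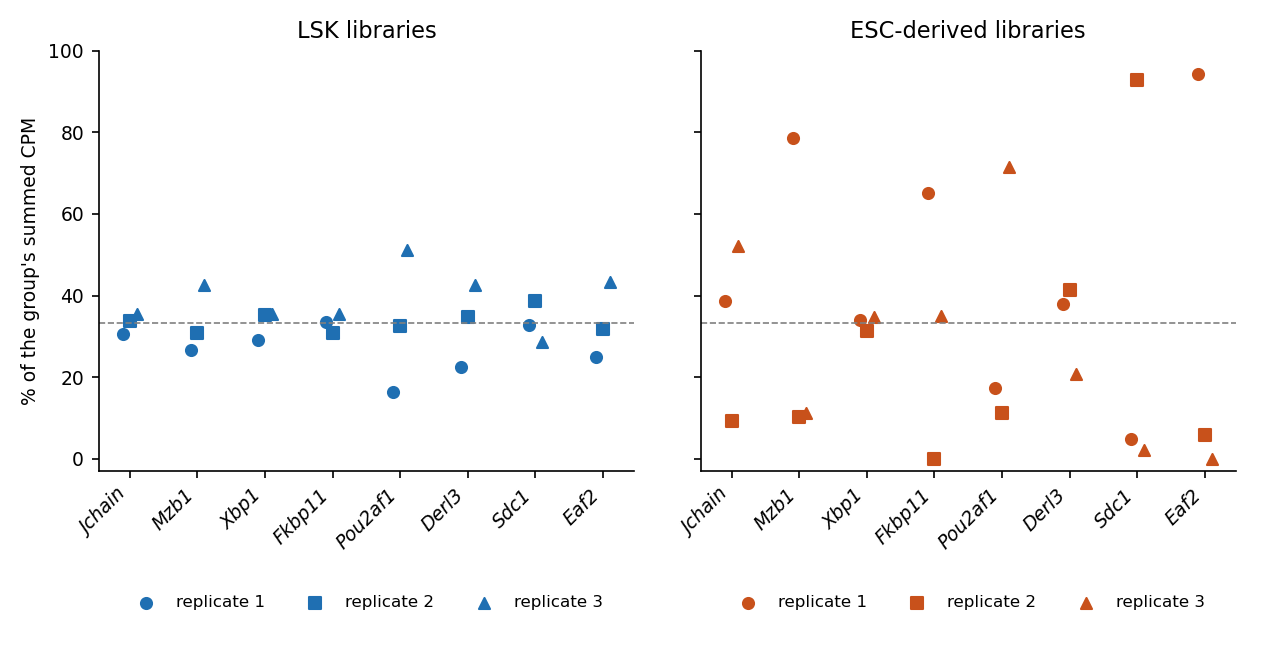
Share of each group's summed CPM held by each of its 3 libraries, in percent, for the 8 genes, with LSK libraries on the left and ESC-derived libraries on the right. The dashed line marks equal shares. The largest LSK share is 51.2%, for Pou2af1, while single ESC-derived libraries hold 78.7% of Mzb1, 92.8% of Sdc1 and 94.2% of Eaf2.

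Immunoglobulin transcripts, the cargo of this pathway, were high in the same LSK libraries. Of 10 tested constant genes, 9 fell and 0 rose, with a median log2 fold change of -9.08 against -0.07 for all tested genes. Among all tested genes 15.2% were lower and 14.8% higher. Several constant genes, Igha among them, reached the filter's level of 0.22 CPM in only 1 ESC-derived library, so they were tested because of their LSK levels. The constant genes summed to 42167 to 58929 CPM in LSK and 197 to 318 CPM in ESC-derived libraries. Per 100 counts of Igha, the IgA heavy chain, there were 116, 113 and 109 counts of Jchain in LSK replicates 1 to 3. Igha had 0 counts in ESC-derived replicates 1 and 2 and 346 in replicate 3, where Jchain stood at 110 per 100 Igha counts, within the LSK range. Replicate 3 was also the ESC-derived library with the most Jchain.

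Against Ighm, the IgM heavy chain, the ratio did not overlap between the groups. There were 34.5, 32.7 and 29.2 counts of Jchain per 100 of Ighm in LSK, and 2.90, 0.854 and 3.93 in ESC-derived libraries. Per 100 counts of Igkc, the kappa light chain, Jchain stood at 15.6, 14.3 and 12.5 in LSK and at 19.4, 5.13 and 9.16 in ESC-derived libraries, which overlap. Per 100 counts of Jchain, Mzb1 stood at 2.88, 3.04 and 4 in LSK and at 254, 138 and 26.7 in ESC-derived libraries. The ratios were not tested, and those of the ESC-derived libraries rest on 60 to 382 counts of Jchain.

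Lists of genes for the general machinery of the ER held calls in both directions, to be read against the 15.2% of all tested genes that were lower and the 14.8% that were higher. Of 24 genes for translocation into the ER and removal of signal peptides, 1 was lower, 10 were higher and 13 did not pass, with a median log2 fold change of 0.43. Srp19, part of the signal recognition particle, rose from 98.3 ± 6.07 to 208 ± 11.8 CPM (log2 fold change 1.08 ± 0.11, edgeR adjusted p = 0.000676). Ssr2, a subunit of the translocon-associated complex, rose from 210 ± 19.5 to 366 ± 27.2 CPM (0.80 ± 0.11, edgeR adjusted p = 0.00269). The gene that fell was Tram2, a translocation protein, from 13.2 ± 3.32 to 4.02 ± 1.47 CPM (-1.72 ± 0.42, edgeR adjusted p = 0.0218, and 0.0913 without LSK replicate 2). With library totals as the only scaling, the counts for this list were 4 lower and 5 higher, without LSK replicate 2 they were 0 and 4, and with DESeq2 they were 2 and 11.

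Of 23 genes for folding and disulphide formation, 6 were lower, 5 were higher and 12 did not pass, with a median of -0.10. Ppib, a prolyl isomerase of the ER, rose from 127 ± 4.44 to 346 ± 36.0 CPM (1.45 ± 0.11, edgeR adjusted p = 0.000236), and the chaperone partner Dnajb11 rose from 74.4 ± 16.7 to 218 ± 17.7 CPM (1.55 ± 0.18, edgeR adjusted p = 0.00139). The peroxiredoxin Prdx4 fell from 113 ± 3.50 to 47.0 ± 2.28 CPM (-1.27 ± 0.12, edgeR adjusted p = 0.000521), and Creld2 fell from 210 ± 9.64 to 143 ± 3.40 CPM (-0.55 ± 0.10, edgeR adjusted p = 0.00644). Members of this list thus lay on both sides of the median of all genes. Without LSK replicate 2 the counts were 2 lower and 3 higher, and with library totals only 7 and 3.

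Of 17 genes for ER-associated degradation and stress sensing, 1 was lower, 3 were higher (Derl2, Selenos and Edem1) and 13 did not pass, with a median of 0.17. These few calls lie near the shares of all tested genes. Derl2, a derlin like Derl3, rose from 30.7 ± 6.21 to 101 ± 6.15 CPM (1.72 ± 0.18, edgeR adjusted p = 0.000875), and Selenos, which binds derlins, rose from 118 ± 17.2 to 224 ± 36.7 CPM (0.92 ± 0.17, edgeR adjusted p = 0.00803). Edem2, which trims sugars of misfolded glycoproteins, fell from 129 ± 7.29 to 80.9 ± 9.79 CPM (-0.68 ± 0.13, edgeR adjusted p = 0.0101, and 0.0514 without LSK replicate 2). Without LSK replicate 2 the counts were 0 lower and 2 higher, with library totals only 2 and 2, with DESeq2 3 and 4, and with limma-voom 2 and 4. T cell markers moved with the rises in these 3 lists, at the sums given above. Neutrophil markers were split, with 5 of 9 higher and 2 lower. They summed to 1206 to 1359 CPM in LSK and 2176 to 4297 CPM in ESC-derived libraries. The part of T cells or neutrophils in the rises was not tested.

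Other genes of antibody-secreting cells parted in both directions. Of 11 regulators and surface genes, 2 were lower, 4 were higher and 5 did not pass, with a median of -1.13. The lower count lies near the share of all tested genes, of which 15.2% were lower and 14.8% higher. Tnfrsf13b, the receptor TACI, fell from 69.9 ± 6.32 to 14.3 ± 3.62 CPM (-2.29 ± 0.23, edgeR adjusted p = 0.000673). Tnfrsf17 had 7.59 ± 4.02 CPM in LSK and no count in any ESC-derived library, or at least 82-fold lower when the group is set at a floor of 12 counts, and was tested only because of its LSK level. Slamf7, a receptor of plasma cells and of cytotoxic lymphocytes, rose from 25.0 ± 0.164 to 241 ± 29.6 CPM (3.27 ± 0.14, edgeR adjusted p = 1.72e-05), and Cd28, a costimulatory receptor of T cells that plasma cells can carry, rose from 27.3 ± 4.39 to 338 ± 65.8 CPM (3.63 ± 0.20, edgeR adjusted p = 5.9e-05).

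The other genes that rose in this list, named after their values were seen, were Cd38 and Prdm1. Prdm1, the repressor Blimp-1 of both plasma cells and effector T cells, rose from 4.10 ± 1.88 to 14.8 ± 3.84 CPM (1.85 ± 0.48, edgeR adjusted p = 0.027, and 0.0916 without LSK replicate 2). All 4 genes that rose are also expressed by T or cytotoxic lymphocytes, whose markers were high in these libraries, and the part of such cells was not tested. The number of lower genes in this list depended on the test, at 6 lower and 5 higher with DESeq2 and 6 and 4 with limma-voom. Over all 16211 tested genes, DESeq2 called 3380 lower and 2919 higher, and limma-voom 3186 and 2593. With library totals only, the counts were 4 and 4, and without LSK replicate 2 they were 2 and 3.

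Of 8 tested octamer factors and B cell regulators, 3 were lower, 0 were higher and 5 did not pass, with a median of -3.08. Ebf1, Spib and Pax5 were under the filter's 0.22 CPM in every ESC-derived library and were tested only because of their LSK levels, so a fall was the only call open to them and neither the count nor the median supports a direction. DESeq2 called 5 of the list lower and limma-voom 6. Ebf1, which specifies the B lineage, was 100-fold lower by its counts (95% counting interval 34 to 489), and Spib, an Ets factor of B cells and plasmacytoid dendritic cells, 92.6-fold lower (25.3 to 770). Bach2, which holds B cells back from becoming plasma cells, fell from 4.73 ± 2.26 to 0.788 ± 0.422 CPM (-2.58 ± 0.76, edgeR adjusted p = 0.0413). The Spib call was lost without LSK replicate 2 (edgeR adjusted p = 0.0763), as was that of Bach2 (0.155), which left 1 gene. The octamer factors that POU2AF1 binds did not pass: Pou2f1 averaged 11.3 ± 2.64 and 10.5 ± 3.06 CPM and Pou2f2 10.3 ± 2.29 and 3.11 ± 1.76 CPM in LSK and ESC-derived libraries. Of 9 tested markers of plasmacytoid dendritic cells, a list that also holds Spib, 6 were lower and 2 higher, with a median of -3.98. Siglech and Spib were under the filter's level in every ESC-derived library, so their falls add no support for a direction. Beside the counts of both lists, 15.2% of all tested genes were lower and 14.8% higher. The 10 genes of the list summed to 411 to 480 CPM in LSK and 143 to 188 CPM in ESC-derived libraries, where Bst2, which rose, made up 98.6 CPM of the mean and Siglech and Klk1 had no count. Their part in the fall of the 8 genes was not tested.

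**Figure D4:**
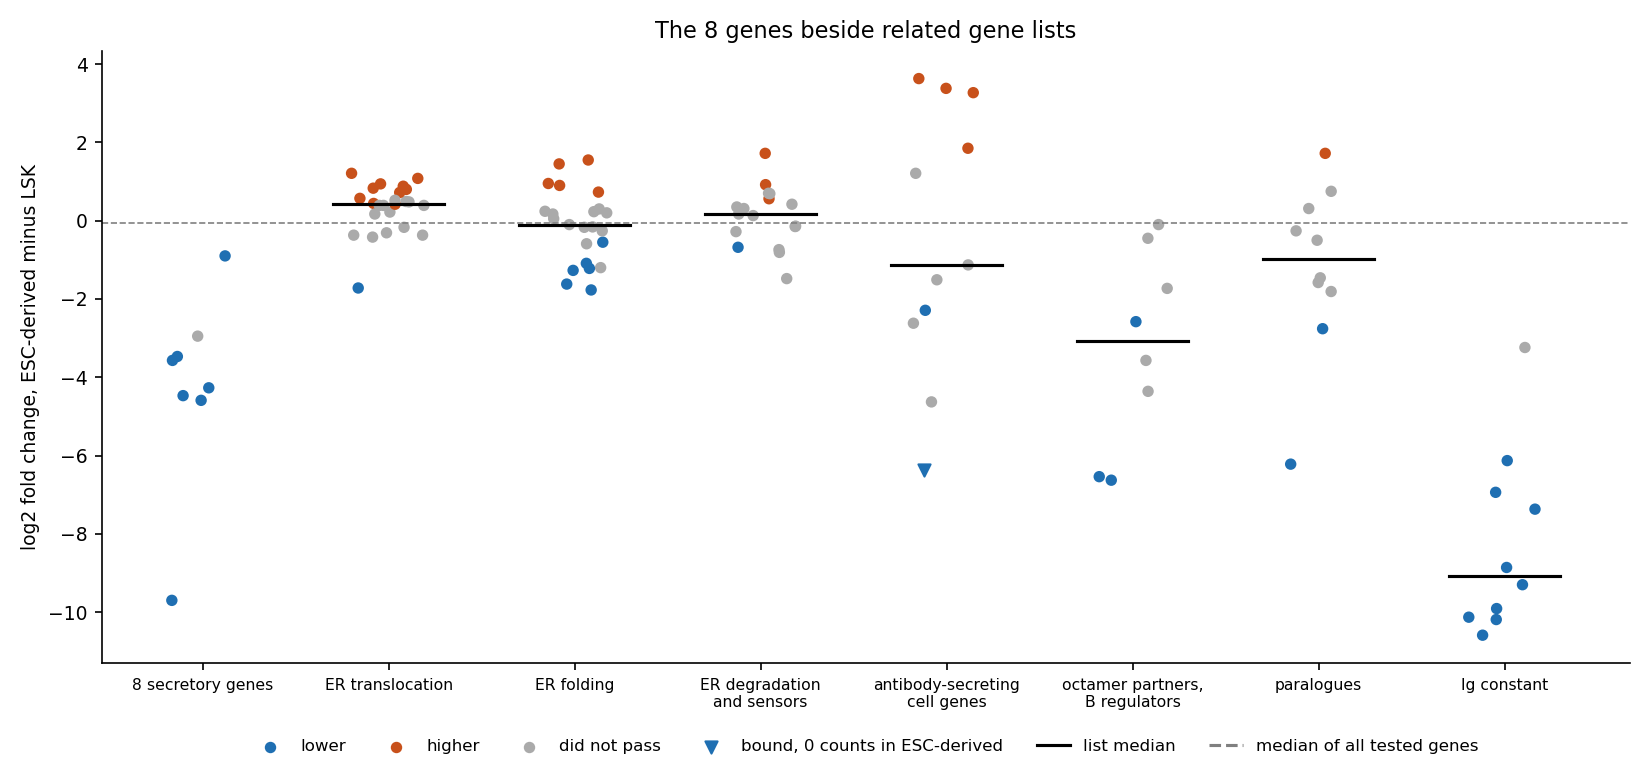
Log2 fold change, ESC-derived minus LSK, of each tested gene of the 8 secretory genes, of the related lists and of the immunoglobulin constant genes, coloured by call, with a bar at each list's median except for the 8 genes and a dashed line at -0.07, the median of all tested genes. The folding and degradation lists lie around the line, with medians of -0.10 and 0.17. The translocation list lies mostly above it, with a median of 0.43, and the constant genes lie far below it, with a median of -9.08.

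Of 10 tested relatives of the 8 genes, 2 were lower, 1 was higher and 7 did not pass, with a median of -0.98. These counts lie near the 15.2% lower and 14.8% higher of all tested genes. Derl3 fell while Derl2 rose, and Derl1 averaged 79.5 ± 7.31 and 98.4 ± 20.1 CPM and did not pass (0.31 ± 0.18, edgeR adjusted p = 0.268). Among syndecans Sdc4 fell with Sdc1, from 11.2 ± 1.53 to 1.65 ± 0.253 CPM (-2.76 ± 0.40, edgeR adjusted p = 0.0029). Sdc2 (-1.81 ± 2.09) and Sdc3 (-1.46 ± 0.72) did not pass and their groups overlapped. Eaf1, the paralogue of Eaf2, averaged 7.48 ± 0.894 and 12.6 ± 1.78 CPM and did not pass (0.75 ± 0.30, edgeR adjusted p = 0.108).

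Among FK506-binding proteins of the secretory pathway, Fkbp9 fell with Fkbp11, from 7.43 ± 2.27 to 0.0960 ± 0.0868 CPM (-6.22 ± 1.18, edgeR adjusted p = 0.00857). Fkbp2 (-0.26 ± 0.16), Fkbp7 (-1.58 ± 0.76) and Fkbp10 (-0.50 ± 2.18) did not pass, and Fkbp14 had too few counts to test. Fkbp9 was under the filter's level in every ESC-derived library and so was tested only because of its LSK level. The difference in fold change between relatives was not itself tested.

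With immunoglobulin genes and the other 7 left out, the 5 genes whose levels lay closest to those of Jchain included the progenitor genes Flt3 and Cd34. In LSK the immunoglobulin gene Igha, at 3818 ± 405 CPM, lay nearer to Jchain than these 5 did. Its ESC-derived level was 2.44 ± 4.22 CPM. By Euclidean distance in log2(CPM + 1) over the 6 libraries, among 16084 genes other than immunoglobulin genes and the other 7, the nearest was Tsc22d1, a TGF-beta-induced leucine zipper gene, at a distance of 4.46. Its means were 880 ± 26.7 CPM (LSK) and 8.28 ± 5.68 CPM (ESC-derived). The carbonic anhydrase gene Car2 (987 ± 22.8 and 25.0 ± 15.0 CPM) and Flt3, a receptor gene (924 ± 73.4 and 0.584 ± 1.01 CPM) both lay at 5.21. Cd34, a surface antigen, lay at 6.07, and Tsix, antisense to Xist and so not separable from it without strand, lay at 6.26. Of the other 7 genes, Mzb1 came nearest to Jchain, at 8.76. Among those 7 the closest pair was Derl3 and Eaf2, at 1.98, a distance that like all these depends on level as well as on pattern.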

How the data were processed

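Bulk RNA of 2000 sorted cells per library was measured. Per the labels' protocols, cDNA came from a SMART-Seq v4 kit, which does not mark strand, and libraries from Nextera XT. HISAT, StringTie and mm10 are named, without versions, per the submitters' processing notes, and their settings are not stated there. The deposited values are whole-number estimated counts per gene ID that the authors did not normalize. Between 40.1 and 47.2% of values from 1 to 20 were divisible by 4, so a fragment was often worth about 4 counts. The floor for genes at 0 is 12 counts over a group, or 3 fragments. Counting error is all that floors and intervals cover. The header holds all 6 column names in 1 field, which were assigned in the order written there. Of 55401 IDs, 55141 matched GENCODE M21.

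Counts were filtered with filterByExpr, scaled with TMM and tested with edgeR 4.0.16 in R 4.3.3 (quasi-likelihood F test, robust, two-sided, Benjamini-Hochberg over 16211 genes, threshold 0.05, no block), contrast ESC-derived minus LSK. CPM values are TMM-scaled, and kilobases are of merged exons. SEs were derived from the F statistics. The procedure was tested on simulated data with the same spread in both groups and changes only in genes above a set mean level. That does not show how it performs for genes as uneven as several of the 8 were in the ESC-derived libraries. The 17 alternatives were DESeq2 1.42.0, limma-voom (limma 3.58.1), upper quartile scaling, RLE scaling, library totals only, immunoglobulin genes left out, no filter, a filter of 50 counts in 3 libraries, values divided by 4, the replicate number as a block, a test against a 2-fold change, and leaving out each of 6 libraries. The rule for named genes took the 8 genes, up to 2 higher and 2 lower genes of each list by adjusted p, all relatives of the 8, and the 5 genes nearest to Jchain. Bach2, Edem1, Cd38, Prdm1, Pou2f1, Pou2f2, Pax5, Igha, Igll1, Siglech, Klk1 and the genes that overlap Mzb1 and Eaf2 are named outside it, after their values were seen. The 8 genes and the lists were chosen with earlier results of these data known.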

Additional observations from a re-analysis of the deposited data

How the results depend on the processing

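The 8 genes stayed lower in the ESC-derived libraries in all 136 values from the 17 alternatives, of which 19 lost the call and 2 gained it. The test against a 2-fold change left 2354 of 4861 genes called, 4 of the 8 (without Xbp1 at -0.90, Sdc1 at -4.27 and Fkbp11 at -4.59) and 12 of the 37 calls in the 6 related lists. Sdc1 also lost its call with no low-count filter (-4.29, edgeR adjusted p = 0.05) and with upper quartile scaling (-4.27, 0.0513). Eaf2 gained a call with limma-voom (-5.47, adjusted p = 0.0256), which called 8 of the 8 genes. Leaving out 1 library gave 2716 to 4603 genes, 4 to 6 of the 8 and 19 to 37 list genes, lowest in each without LSK replicate 2, and for the 8 also 4 without LSK replicate 3. The log2 fold changes then ran from -7.48 to -3.72 for Sdc1, -5.50 to -4.01 for Fkbp11, -4.69 to -3.02 for Pou2af1 and -6.46 to -2.37 for Eaf2. Such a fit assumes that the group of 2 varies like the other.

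Whether replicate numbers pair the libraries is not stated in the labels. Deviations of same-numbered libraries correlated at 0.0144, 0.0377 and 0.0168 over 16211 genes, and those of differently numbered ones at -0.0409 to 0.00683. All of these values are small, and they do not settle the question. With the replicate number as a block, 3220 genes, 6 of the 8 and 30 list genes were called, and Fkbp11 lost its call (-5.34, edgeR adjusted p = 0.063). DESeq2 called 6299 genes and 52 list genes. With library totals only, the median of all tested genes moved from -0.07 to -0.31. Depth limits the low genes: Eaf2, Fkbp11, Derl3 and Sdc1 had 120, 138, 146 and 163 counts over the 3 ESC-derived libraries, often 4 to a fragment.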
